A study of Danio rerio with 57 samples.

Results

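In early zebrafish embryos 820 genomic places were in the list of regions marked by H3K9me3 at 2 h post fertilisation (hpf). They were missing from the 2.5 hpf list and were listed again at both 3.5 and 4 hpf. These places are called returning places here, and marked means listed at that time point. A place is a stretch formed by joining touching or overlapping regions of all 6 deposited lists on chromosomes 1 to 25, which gave 62659 places. Returning places made up 1.31% of these and 12.9% of the 6371 places marked at 2 hpf. They were chosen by their presence in the 2 hpf list, absence from the 2.5 hpf list and presence in the 3.5 and 4 hpf lists. Presence or absence in those 4 lists is therefore the selection and not a result. The rule used the 3 and 4.5 hpf lists only to join regions into places, and it did not use the lengths, the authors' values for each region or the positions.

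H3K9me3 is the trimethylation of lysine 9 on histone H3. It is written by methyltransferases of the SUV39 and SETDB1 kinds and bound by HP1 proteins, and because writers are recruited by the mark and by its readers, it can spread from a starting site into a wider heterochromatin domain. The mark is best known for silencing transposable elements and satellite repeats. In the zebrafish the earliest embryo divides rapidly with little transcription, and the zygotic genome is switched on during the blastula stages, the period in which heterochromatin is built up.

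The mark was mapped by CUT&RUN, in which an antibody tethers a nuclease that releases the DNA around marked nucleosomes, in whole embryos of the AB strain, for which the labels name no mutation or treatment in any group. The groups are the H3K9me3 libraries of the time course, 2 at 2 hpf and 3 each at 2.5, 3, 3.5, 4 and 4.5 hpf, made with one Abcam antibody. Whole embryos mix all cells of a stage, so fewer marked cells and a weaker mark per cell cannot be told apart. The 10 IgG libraries of the time course and the 30 libraries of a confirmation experiment were not analysed here. Every library carried E. coli DNA as a spike-in. The authors deposited 1 list per time point. Values of single libraries are not part of it, so neither the spread between libraries nor the depth behind a list is known. The lists were read as those of the time course, which their names alone do not settle. Ranges in brackets are exact 95% binomial intervals over places for shares, order-statistic intervals for medians, and the lowest and highest value for rotations. The intervals cover counting error only, and no p-value was computed.

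The lists differ in size, with 7516, 21196, 32756, 43657, 51200 and 33704 regions in order of time. The 2.5 hpf list was thus 2.82-fold longer than the 2 hpf list and covered 3.51-fold more of the chromosomes, so returning places were missing from a longer list than the one that holds them. At 4.5 hpf chromosomes 1 and 10 to 14 stood apart, with a median region signal of 652.5 against 126.3 on the other 19 chromosomes. The same medians in the 4 hpf list were 102 and 107.1. Shares and medians over sets of places or regions at 4.5 hpf are therefore also given for the 19 chromosomes, except under rotation, which moves regions between chromosomes. The share over all places in both the 3.5 and 4 hpf lists and the values under alternative settings are given for all chromosomes only.

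Most places marked at 2 hpf were still marked at 2.5 hpf, and among the places that were not, return was common. Of the 6371 places at 2 hpf, 2096 (32.9%) had no base covered at 2.5 hpf. A place counts as found at 2.5 hpf wherever in it the region lies. Of the 7233 regions of the 2 hpf list on these chromosomes, 2910 had no base of their own covered then. The rule took 39.1% of these 2096 places. Another 954 of the 2096 were in no later list at all, and the remaining 322 were in at least 1 later list but not in both that of 3.5 and that of 4 hpf. By comparison, 90.7% (89.8 to 91.5) of the 4275 places also found at 2.5 hpf were in both the 3.5 and 4 hpf lists.

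To set the return beside what chance positions give, the 4 lists from 3 hpf onward were rotated together around the genome by 1000 offsets. The 2 and 2.5 hpf lists stayed in place. Rotation keeps the spacing within the later lists and loses any tie to the underlying sequence, so it describes and does not test. The rule took 820 places as listed and 186 on average under rotation (lowest 138, highest 239). As a share of the 2 hpf places absent at 2.5 hpf in each rotation, rotation gave 6.55% on average (4.84 to 8.48). Places were formed anew in each rotation, so this share and the 39.1% as listed are not over the same set of absent places. These counts describe the selection itself. They also depend on what is followed: 1390 of the 2 hpf regions took the same course when regions were followed in place of joined places, and 197 places met the rule when only regions named primary by the authors were used. The 3 and 4.5 hpf lists, in which the rule asks for nothing, also overlapped the 2 hpf regions themselves more than rotation did. Regions followed in this way include some in places that hold a 2.5 hpf region elsewhere, which the rule drops. Among the 1390 regions above, 645 lay in such places. Overlap at 3 and 4.5 hpf without such regions was not computed. Of the 2910 regions of the 2 hpf list with no base covered at 2.5 hpf, 41.1% were overlapped at 3 hpf, against 4.58% on average under rotation (3.47 to 6.43). At 4.5 hpf 45.5% were overlapped, against 7.91% under rotation (5.88 to 10.1), and on the 19 chromosomes the overlapped share was 45.6%. Regions that were overlapped at 2.5 hpf stood higher still, with 85.8% overlapped at 3 hpf and 80.5% at 4.5 hpf (82.3% on the 19 chromosomes).

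**Figure D1:**
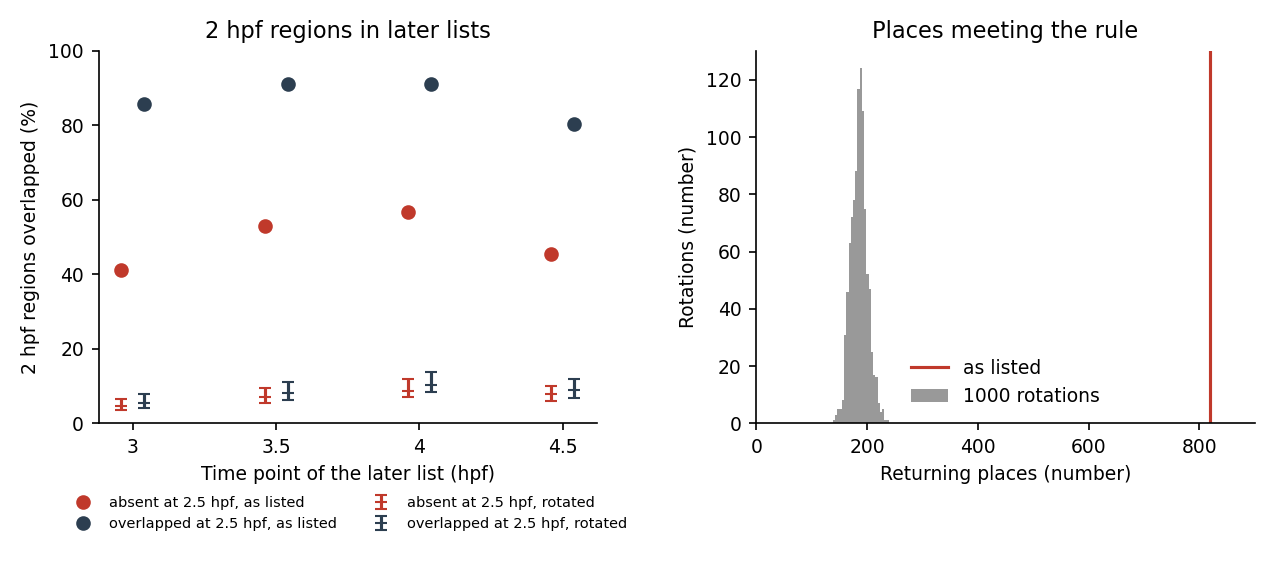
On the left, the share of 2 hpf regions (in percent) overlapped in each later list, for regions absent at 2.5 hpf (red) and overlapped at 2.5 hpf (dark); dots are the lists as deposited, and bars the mean, lowest and highest of 1000 rotations. On the right, the number of places meeting the rule in the rotations (grey) and as listed (red line at 820). At 3 hpf the red dot stands at 41.1% and its rotations between 3.47% and 6.43%.

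Most returning places were marked again by 3 hpf. In that list 585 of 820 (71.3%, 68.1 to 74.4) were found, and the other 235 were first found again at 3.5 hpf. Over all 31051 places in both the 3.5 and 4 hpf lists the share found at 3 hpf was 60.0%. Places taken by the rule under rotation had 71.2% (60.4 to 82.1), so the share of returning places lies inside that range. Rotation draws on all later places, including those marked since 2 or 2.5 hpf, and the places it took had a median of 2678 bp covered at 4 hpf (1885 to 3597), a range that holds the 2015.5 bp of returning places. At 4.5 hpf 596 of the 820 (72.7%, 69.5 to 75.7) were found, against 69.2% of all places in the 3.5 and 4 hpf lists. On the 19 chromosomes the share was 74.9% (71.4 to 78.1), and on chromosomes 1 and 10 to 14 it was 63.2% (55.0 to 70.8). Under rotation 80.4% were found at 4.5 hpf (69.5 to 88.9).

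The 3 and 4.5 hpf lists divide the 820 places into 4 patterns. The commonest, with 449 places (54.8%), was marked at 3, 3.5, 4 and 4.5 hpf without a further gap. A further 147 places (17.9%) were first found again at 3.5 hpf and were still listed at 4.5 hpf. Another 136 (16.6%) were back at 3 hpf and missing again at 4.5 hpf, and 88 (10.7%) were seen at 3.5 and 4 hpf only. On the 19 chromosomes these shares were 56.3%, 18.6%, 14.8% and 10.3% of 668 places. All 4 patterns had a median 2 hpf length of 500 bp, which was the exact 2 hpf length of 166 of the 820 places. Equal medians at this width need not mean equal lengths. At 4 hpf the medians differed. The median covered length at 4 hpf was 2857 bp in the unbroken pattern, 1697 bp in the late one that lasted, 1414 bp in the early one that was lost and 905 bp in places seen at 3.5 and 4 hpf only.

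The bases marked at 2 hpf were covered to a different extent in each later list. Some overlap is built into the rule, since a 2 hpf region that stands alone in its returning place must touch a later region to be joined with it. The rule also asks for presence at 3.5 and 4 hpf but not at 3 or 4.5 hpf. Higher cover at 3.5 and 4 hpf thus follows in part from the selection. How much of the region is covered is not fixed by the rule. The 2910 regions of the 2 hpf list with no base covered at 2.5 hpf were not selected on later lists. Of these, 41.1%, 52.9%, 56.6% and 45.5% were overlapped at 3, 3.5, 4 and 4.5 hpf (45.6% at 4.5 hpf on the 19 chromosomes). At 3 hpf the 2 hpf bases themselves were overlapped in 484 of the 585 places found then (82.7%), and in the other 101 the new regions lay elsewhere in the place. The 3.5 hpf list overlapped the 2 hpf bases of 757 of the 820 places, and the 4 hpf list those of 786. In 12 places neither list touched them. Of all bases marked at 2 hpf in returning places, the lists of 3, 3.5, 4 and 4.5 hpf covered 50.9%, 85.2%, 89.5% and 67.7%, with 69.7% at 4.5 hpf on the 19 chromosomes. Cover from end to end was reached in 230 places at 3 hpf, and in 612 (74.6%) by 4 hpf.

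Returning places were short at 2 hpf, and the median over the places found was longer in each later list that held them. At 2 hpf the covered length had a median of 500 bp (quartiles 460.5 and 663 bp, lowest 247, highest 2403). In 166 of the 820 it was exactly 500 bp, a width that 16.3% of all 2 hpf regions share, and how that width arose is not stated in the sources at hand. Only 76 places (9.27%) were over 1000 bp. Over the 585 places found at 3 hpf the median was 1210 bp. Over all 820 it was 1656.5 bp in the 3.5 hpf list and 2015.5 bp in the 4 hpf list. Over the 596 places listed at 4.5 hpf it was 2796.5 bp, and 2771 bp on the 19 chromosomes. The patterns missing at 4.5 hpf were the shorter ones at 4 hpf, which raises this last median. Of places found in both lists, 453 of 585 were longer at 3.5 than at 3 hpf and 595 of 820 at 4 than at 3.5 hpf. At 4.5 hpf 388 of 596 were longer than at 4 hpf, and 319 of 500 on the 19 chromosomes. Median region width in the whole lists of 2, 3, 3.5 and 4 hpf also rose, with 631, 829, 982 and 1041 bp. The covered length was larger at 4 hpf than at 2 hpf in 779 of 820 places, by a median of 3.57-fold (quartiles 2.05 and 6.33). A place takes in every region that joins it, so growth is in part built into the measure. The largest such fold was 32.6.

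Places kept through 2.5 hpf were longer at every time, and places that had not been marked before 3 hpf were shorter. The median covered length at 2 hpf was 500 bp for returning places and 815 bp for the 3876 places found at 2, 2.5, 3.5 and 4 hpf. At 4 hpf it was 2015.5 bp for returning places (1834 to 2193), 4677.5 bp for the kept places (4526 to 4832) and 1129 bp (1110 to 1145) for the 18107 places absent at 2 and 2.5 hpf and present at 3.5 and 4 hpf. The order was the same at 3, 3.5 and 4.5 hpf, in the last also on the 19 chromosomes (2771, 4918 and 1651 bp). The rule contributes to it. A place is dropped from the returning set if a 2.5 hpf region lies anywhere in it, and long places have more room for one. A 2 hpf region, in turn, falls into long places more easily than into short ones.

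**Figure D2:**
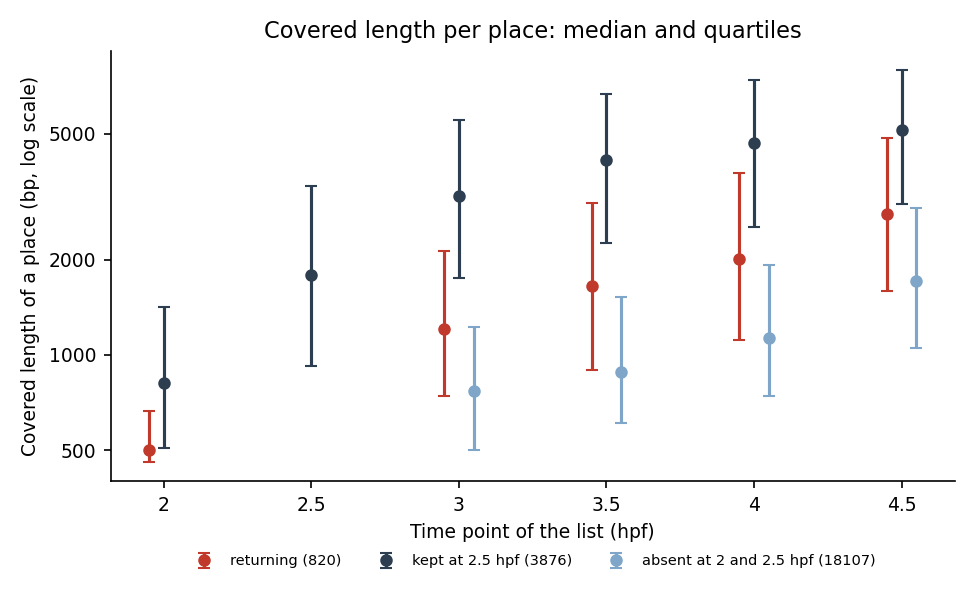
Covered length per place (bp, log scale) in each list, as the median (dot) and quartiles (bars) over the places found in that list, for returning places (red), places kept at 2.5 hpf (dark) and places absent at 2 and 2.5 hpf (light blue). Returning places lie between the other 2 sets from 3 to 4.5 hpf, with 2015.5 bp at 4 hpf.

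Few returning places lay in wide domains. The widest region over a place at 4 hpf had a median of 1912.5 bp. It reached 5 kb in 102 of 820 places (12.4%, 10.3 to 14.9) and 10 kb in 4 places. Among kept places these shares were 43.9% and 10.9%, and among the 18107 later places 2.99% and 0.160%. The rule contributes to the contrast with kept places. It drops any place that holds a 2.5 hpf region, and wide domains have more room for one. Of the 1390 regions of the 2 hpf list on the same course, 645 lay in such dropped places. No rotation value was computed for these shares. At 4.5 hpf the widest region reached 5 kb in 135 of the 596 places found (22.7%), or 106 of 500 (21.2%) on the 19 chromosomes. Where a 4 hpf region overlapped a 2 hpf region of a returning place, it extended beyond it on both sides in 626 of 800 cases (78.2%) and on one side in 164. In the other 10 it reached no further than the 2 hpf region. The centres of the 2 regions were apart by a median of 0.391 of the distance from the centre to the edge of the 4 hpf region. In kept places this value was 0.382.

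Within each class of covered length at 4 hpf, returning places were marked at 3 hpf more often than places absent at 2 and 2.5 hpf and less often than kept ones. Among places with under 1 kb covered at 4 hpf, 49.4% of 168 returning places (41.6 to 57.2) were found at 3 hpf, against 72.8% of 158 kept places (65.1 to 79.6) and 26.9% of 7866 places absent at 2 and 2.5 hpf (25.9 to 27.9). With 1 to 2 kb covered the shares were 67.6% for returning, 85.9% for kept and 46.9% for later places. With 2 to 5 kb they were 80.1%, 95.6% and 60.3% in the same order of sets, and with 5 kb or more 89.1%, 98.7% and 73.5%. The 3 intervals, which cover counting error over places only, did not overlap in any of the 4 length classes. The sets are defined by the 2 and 2.5 hpf lists, and how far their order at 3 hpf follows from that grouping was not tested. Lengths within a class need not be alike. The class of 5 kb or more has no upper limit and held 13.4% of returning, 46.4% of kept and 3.38% of later places. No rotation value by length class was computed. At 4.5 hpf the intervals of returning and later places overlapped in all 4 classes, and so they did on the 19 chromosomes. In that list 42.3% of returning places under 1 kb were found (34.7 to 50.1), against 40.5% of later places (39.4 to 41.5), and 93.6% of returning places of 5 kb or more (87.3 to 97.4), against 94.0% of later ones (91.8 to 95.7). On the 19 chromosomes the values under 1 kb were 41.0% for returning and 41.5% for later places, and with 5 kb or more 95.6% and 96.1%.

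**Figure D3:**
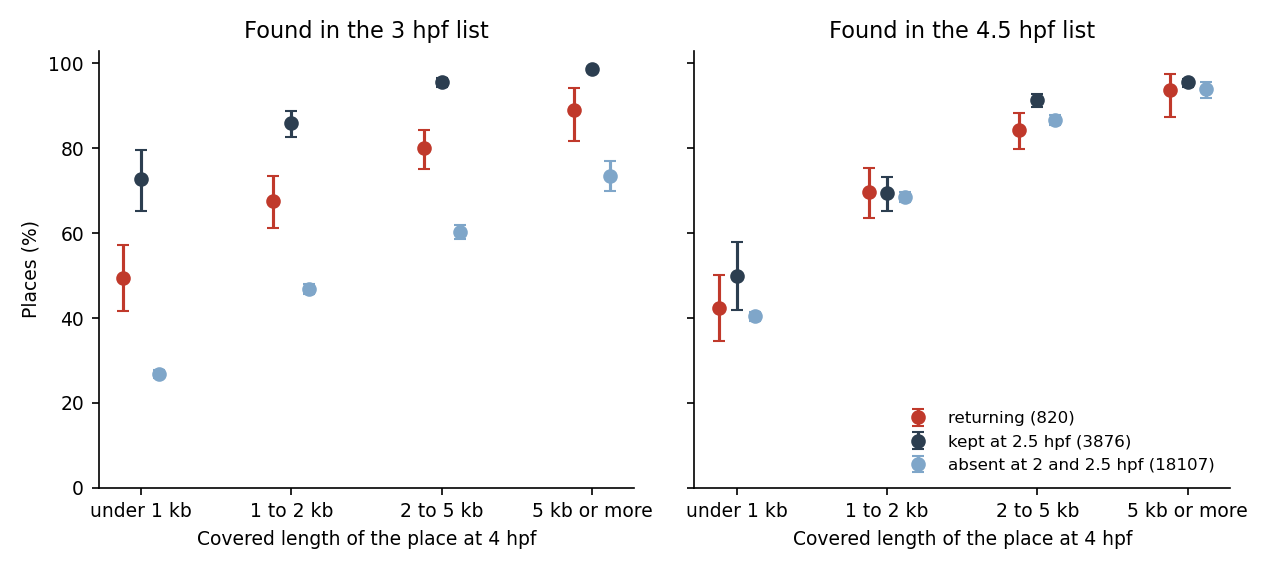
Share of places (in percent) found in the 3 hpf list (left) and the 4.5 hpf list (right) by covered length at 4 hpf, for returning places (red), kept places (dark) and places absent at 2 and 2.5 hpf (light blue); bars are exact 95% binomial intervals. At 3 hpf the 3 sets are apart in every length class, with 49.4%, 72.8% and 26.9% under 1 kb.

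Returning places stood low in the 2 hpf list and higher in the later ones. From 3 to 4 hpf places absent at 2 and 2.5 hpf also moved up. The authors' p-value orders the regions of each list, and a rank of 0% is its lowest p-value. At 2 hpf the best region of a returning place had a median rank of 67.7% of the list, against 36.7% for kept places. Places absent at 2.5 hpf that did not come back in both lists had 80.5%. By the authors' deposited values, the median p-value was 0.640 in returning places, 0.301 in kept places and 0.776 in places that did not come back. It was at most 0.05 in 9 of the 820 returning places (1.10%), in 13.8% of kept places and in 18 of the 1276 places that did not come back (1.41%). What this p-value tests is not stated, so the 2 hpf regions are taken as listed. The authors' signal at 2 hpf had medians of 34.95 in returning places, 63.65 in kept places and 29 in those that did not come back. Regions whose deposited name begins with primary, a distinction no header explains, were the best 2 hpf region of 77 returning places (9.39%), against 43.4% of kept places and 4.94% of places that did not come back. In the 3, 3.5 and 4 hpf lists the median rank of returning places was 42.5%, 32.5% and 30.0%. Places absent at 2 and 2.5 hpf had 57.0%, 52.1% and 40.8% in the same lists, so the climb was not particular to returning places. The rank is that of the best region of a place, which favours places that join more regions. At 3 hpf the median of kept places was better than that of returning places. Kept places had 21.6% at 3.5 hpf (20.2 to 22.9) and 41.0% at 4 hpf (36.5 to 46.0). The order of the medians thus turned between these lists, with 30.3% to 35.7% and 26.4% to 32.9% as the intervals of returning places. Ranks of kept places were widely spread at 4 hpf, with quartiles of 11.4% and 94.2%, against 12.7% and 56.0% for returning places. By the lower quartile kept places still stood better. Of places found at 3 hpf, the best region was named primary in 20.2% of returning, 65.3% of kept and 8.37% of later places. At 3.5 hpf these shares were 44.3%, 58.8% and 22.0%. Of these lists only that of 4 hpf had a higher share in returning than in kept places. There it was 425 of 820 (51.8%, 48.4 to 55.3), against 45.4% of kept places (43.8 to 47.0) and 36.8% of later places (36.1 to 37.5). Ranks from lists of different length are positions within each list and do not measure a change in the mark.

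Return was more frequent for longer 2 hpf marks and, below the best-ranked class, for better-ranked ones. Of the 2 hpf places absent at 2.5 hpf, those under 500 bp returned in 305 of 924 cases (33.0%, 30.0 to 36.1) and those of exactly 500 bp in 166 of 474 (35.0%). Those over 500 and up to 1000 bp returned in 47.9% of 570 cases and those over 1000 bp in 59.4% of 128 (50.3 to 68.0). A longer mark meets a later region more easily, since 1 bp of overlap is enough. No rotation value by class was computed. In the lowest-ranked 25% of the list 29.5% of 1091 returned (26.8 to 32.3). The next classes up gave 44.7% of 638 and 60.5% of 271 (54.4 to 66.4). The best-ranked 25% gave 51.0% of 96 (40.6 to 61.4). Its interval overlaps that of the class below, so whether the trend continued into the top class cannot be told. The same properties also went with being found at 2.5 hpf in the first place, from 39.0% of places under 500 bp to 92.7% of those over 1000 bp.

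**Figure D4:**
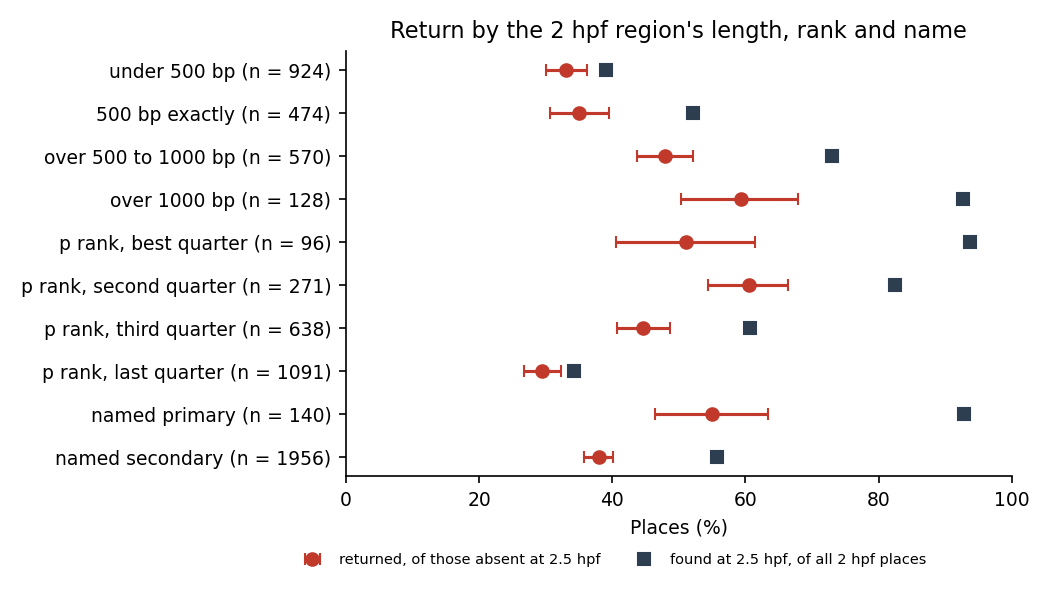
Share of 2 hpf places absent at 2.5 hpf that returned (red, percent, with exact 95% binomial intervals) and share of all 2 hpf places found at 2.5 hpf (dark squares), by length of the 2 hpf mark, by rank of the authors' p-value and by region name; n is the number absent at 2.5 hpf. Return stood at 33.0% under 500 bp and 59.4% over 1000 bp.

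Distances to the 2.5 hpf list depend on the rule, which drops every place that holds a 2.5 hpf region. Of the 1390 regions of the 2 hpf list that were themselves uncovered at 2.5 hpf and overlapped at 3.5 and 4 hpf, 645 (46.4%) lay in such dropped places. For the places that remained, the nearest 2.5 hpf region lay a median of 16790.5 bp from a returning place (quartiles 5937 and 39887 bp), and it lay within 1 kb of 20 of the 820 (2.44%) and within 5 kb of 182 (22.2%). Places absent at 2.5 hpf that did not come back had nearly the same median, 16670.5 bp, with 24.1% within 5 kb. Their share within 1 kb was higher, at 4.78%, and their quartiles were 5276 and 51613.5 bp. Distances run from the edge of a place. Returning places had a median width of 2571.5 bp, against 500 bp for places that did not come back. Return took 37.2% of places with a 2.5 hpf region within 5 kb (32.9 to 41.7) and 39.7% of the others (37.3 to 42.1), with overlapping intervals. The 10 kb on either side of returning places were covered over 2.58% at 2.5 hpf on average, against 3.93% around kept places and 1.78% around places first marked later. In the 4 hpf list these means were 10.3%, 12.4% and 8.26%. Around places absent at 2.5 hpf that did not come back the means were 3.09% at 2.5 hpf and 9.06% at 4 hpf.

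The returning places nearest the limit of the rule were a stretch at chromosome 17, 5188091 to 5189441, with a 2.5 hpf region 138 bp away, and 2 others on chromosomes 13 and 7 with distances of 164 and 188 bp. The places that failed the rule by the least held 250, 267 and 275 bp of a 2.5 hpf region, 2 on chromosome 20 and 1 on chromosome 21.

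The longest 2 hpf marks among returning places show the variety of courses. At chromosome 23, 13018751 to 13025133, the lists from 2 to 4.5 hpf covered 2327, 0, 3762, 6121, 6072 and 6068 bp in order of time. A stretch at chromosome 17, 3848157 to 3854430, took the same course, with 2299, 0, 3931, 5905, 6240 and 5946 bp. Both came back at 3 hpf over all of their earlier bases and stayed near a steady length from 3.5 hpf on. At chromosome 25, 26160180 to 26166124, and chromosome 7, 64636422 to 64642162, the mark was missing at 2.5, 3 and 4.5 hpf. On chromosome 25 the lists of 2, 3.5 and 4 hpf covered 2322, 5133 and 5945 bp, and on chromosome 7 they covered 2310, 5143 and 5667 bp. The widest of all, at chromosome 14, 18668242 to 18671541, had 2 regions of together 2403 bp at 2 hpf. Its later lists from 3 to 4.5 hpf covered 3283, 1053, 1070 and 0 bp, and it alone of these 5 was shorter at 4 hpf than at 2 hpf. Its absence at 4.5 hpf falls on a chromosome that stands apart in that list. The authors' p-values of these 5 at 2 hpf lay between 0.0119 and 0.0601, and all were named primary.

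The returning places with most covered length at 4 hpf began from short marks, and 3 of the 5 lay on the long arm of chromosome 4, a known heterochromatic and repeat-rich arm. At chromosome 4, 58216806 to 58230122, the lists from 2 to 4.5 hpf covered 464, 0, 2366, 6253, 11870 and 13317 bp. At chromosome 4, 33486558 to 33498519, they covered 364, 0, 1685, 11617, 11850 and 11912 bp, with the largest step between neighbouring lists among the 5. At chromosome 4, 64821514 to 64832792, they covered 500, 0, 2911, 5039, 10925 and 10375 bp. Here the 500 bp marked at 2 hpf were covered over 21.2% at 3 hpf, not at all at 3.5 hpf and in full at 4 hpf. The other 2 were at chromosome 16, 23446253 to 23457751, and at chromosome 19, 18336873 to 18347385. The chromosome 16 stretch covered 889, 0, 6840, 10543, 11300 and 9618 bp, and the chromosome 19 stretch 1022, 0, 2203, 7237, 10413 and 10062 bp. All 5 were picked for their length at 4 hpf, so their growth follows in part from the choice.

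The lowest p-values at 2 hpf among returning places, 0.00234 and 0.00244 in the authors' deposited table, belonged to 2 stretches of chromosome 2. At 46132218 to 46134235 the lists from 2 to 4.5 hpf covered 650, 0, 0, 2018, 1848 and 0 bp. At 19436903 to 19444634 they covered 1042, 0, 4502, 5987, 4798 and 0 bp. There the region found at 3 hpf lay beside the 2 hpf bases and not over them. The next lowest was the chromosome 7 stretch described above.

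Returning places were spread over all 25 chromosomes, at 0.610 per Mb. Their density was highest on chromosome 22 with 1.15 per Mb (45 places) and chromosome 4 with 0.896 per Mb (70 places), and lowest on chromosome 1 with 0.302 per Mb (18 places). Chromosomes 22, 4 and 1 held 281, 475 and 205 of the 2 hpf places. The share that returned of those absent at 2.5 hpf ran from 28.2% of 85 on chromosome 20 (interval ending at 39.04) to 50.8% of 63 on chromosome 6 (37.9 to 63.6), and of the 25 intervals that of chromosome 20 alone ended just short of the 39.1% of all chromosomes. They occupied 571 windows of 1 Mb, of which 407 held exactly 1 and 61 held 3 or more. No window held over 5, and the 4 with 5 began at position 2000001 on chromosome 14, 39000001 on chromosome 18 and 3000001 on chromosomes 2 and 3.

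**Figure D5:**
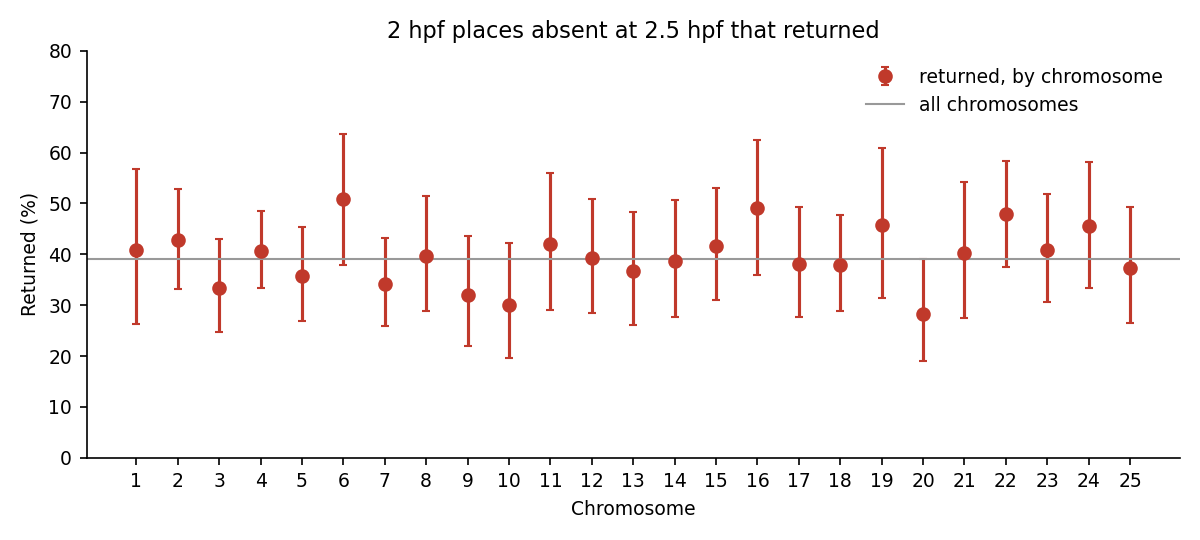
Share of 2 hpf places absent at 2.5 hpf that returned (percent) on each chromosome, with exact 95% binomial intervals; the grey line is the value over all chromosomes, 39.1%. Only the interval of chromosome 20, at 28.2%, does not reach the line.

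Returning places were denser at chromosome ends and on the long arm of chromosome 4 than over all chromosomes, as were 2 hpf places in general, while the intervals of the share that returned overlapped those elsewhere. Per Mb there were 1.22 returning places in the outer 1 Mb and 1.30 on the arm, against 0.610 over all chromosomes. All 2 hpf places had densities of 10.9, 8.10 and 4.74 per Mb in the same order. Each of these stretches makes up 3.72% of the length. The outer 1 Mb of the chromosomes held 61 of the 820 (7.44%, 5.74 to 9.45), against 9.26% of kept places (8.37 to 10.2) and 6.58% of places that did not come back. Under rotation the share of places taken by the rule was 6.69% on average (1.60 to 16.2). Of the 2 hpf places absent at 2.5 hpf, 42.1% returned in the outer 1 Mb (33.9 to 50.5) and 38.9% in the interior (36.7 to 41.1). Chromosome 4 from 28 Mb onward held 65 returning places (7.93%, 6.17 to 9.99), against 5.75% of kept places (5.04 to 6.53), 6.58% of places that did not come back (5.28 to 8.09) and 4.87% of later places (4.56 to 5.19). Rotation gave 7.12% there (1.69 to 15.1). On this arm 43.6% of 149 places returned (35.5 to 52.0), against 38.8% elsewhere (36.6 to 41.0).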

How the data were processed

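H3K9me3 CUT&RUN was measured in zebrafish embryos, and 1 region list per time point was analysed. Of tools, the submitters' processing notes list STAR, Trim Galore, Picard, SAMtools, HOMER and bedtools, without role or version. The peak caller, the genome build and the way replicates were combined are not stated in the sources at hand. The authors' deposited score, which follows the p-value, was not used. The deposited signal has no stated unit and was compared within one list only. The deposited p-value was used for ranks and medians within a list, and what it tests is not given. The lists were taken to be those of the time course.

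Touching regions were joined, and 1 bp made a place found in a list. Chromosome length was the furthest region end. Start and end are printed as listed but counted from 1. No genome or annotation of the lists' build was used, so no gene, repeat or sequence is named. Rotation moved the lists of 3 hpf and later by one shared offset of at least 1 Mb, 1000 times, with the union rebuilt each time; its mean and range are given as a description. Named places were the 5 longest at 2 hpf, the 5 with most covered length at 4 hpf, the 3 with the lowest p-value at 2 hpf and 3 on either side of the rule's limit. The members, lists of properties and classes were chosen with earlier results of these data known. Classes of length, rank, distance and position were drawn up with the values in view. The interval functions were tested on simulated data. Computing used Python 3.11.15, numpy 2.4.6, pandas 2.3.3, scipy 1.17.1 and matplotlib 3.10.9. Alternatives were another joining distance, the 2 hpf regions themselves, a stricter absence, the 50% of each list with the lower p-values, regions named primary, other rotations and leaving out chromosomes 1 and 10 to 14.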

Additional observations from a re-analysis of the deposited data

Results flagged for a closer look

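Unplaced scaffolds were outside all comparisons above. Under the same rule they held 28 returning places. No rotation was run on the scaffolds, and control libraries were not used. The 28 were 37.3% of the 75 scaffold places at 2 hpf that were absent at 2.5 hpf (exact 95% binomial interval 26.4 to 49.3). Of the 28, 22 were found at 3 hpf. The median of their covered length was 500 bp in the 2 hpf list, and in the 4 hpf list it was 1630 bp.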

How the results depend on the processing

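No paired analysis was possible because the lists carry no replicates, and none could be left out in turn. Shares and medians were held to their 95% interval, and counts to 1.5 times. Of 58 values under alternatives, 32 stayed within these limits and 26 moved beyond them. A change of direction was not assessed. Joining regions up to 1 kb apart moved only the share returned, to 42.9%. Asking for no 2.5 hpf region within 1 kb, or leaving out chromosomes 1 and 10 to 14, moved none.

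When the 2 hpf regions themselves were followed, 1390 of 2910 returned (47.8%), 66.5% of them found at 3 hpf and 79.0% at 4.5 hpf, with a median of 3506.5 bp at 4 hpf, counting whole 4 hpf regions. Of these 1390, 645 lay in places that held a 2.5 hpf region elsewhere. With 50% of the region covered the values were 1313, 45.1%, 67.3%, 80.4% and 3614 bp. With the 50% of each list that has the lower p-values, 241 places returned (30.4%), with 63.1% found at 3 hpf, 56.0% at 4.5 hpf, 5.39% on the chromosome 4 arm and medians of 792 bp at 2 hpf and 2642 bp at 4 hpf. With regions named primary the values were 197, 24.3%, 50.8%, 29.9%, 3.55%, 1078 bp and 3175 bp. Of these 197 places, 167 lay in places that hold a 2.5 hpf region in the full list. The same held for 128 of the 241 places above, and the other 113 lay in returning places. Whether the 2.5 hpf region overlapped the 2 hpf region was not tested in either setting. Rotating each later list by its own offset gave 44.8 places on average, against 186 with a shared one.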
